A study of Caenorhabditis elegans with 2 samples.

Results

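The autophagy genes described here are 10 protein-coding genes of Caenorhabditis elegans, chosen by symbol: epg-9, unc-51, bec-1, epg-8, atg-18, lgg-1, lgg-2, epg-3, epg-4 and epg-5. They are 10 of the 19973 protein-coding genes in the annotation, and they were listed because binding of the nuclear hormone receptor NHR-90 had already been seen near some of them, epg-9 above all. Whether a listed gene has a peak, and how strong that peak is, is therefore a description and not a test. Binding was measured by chromatin immunoprecipitation followed by sequencing (ChIP-seq), in which DNA attached to a chosen protein is pulled down with an antibody and sequenced, so that sites of binding stand out as peaks. The samples were 2 biological replicates of whole hermaphrodite L1 larvae, the first larval stage. They were synchronised by bleaching and starvation and taken 6 h after synchronisation, and they form 1 group. All came from strain OP483, which carries the unc-119(tm4063) mutation on chromosome III and the transgene wgIs483. The transgene makes NHR-90 with GFP and FLAG at its C-terminal end, and GFP was the antibody's target. Binding is thus that of a tagged protein made from a transgene, averaged over every tissue of the larva, and it does not tell which cells contribute. No untagged or input library was analysed here, and the lists of peaks hold no read counts, so depth and counting error are unknown for both replicates.

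Autophagy is the process by which a cell wraps part of its own cytoplasm in a double membrane, the autophagosome, and delivers it to lysosomes for breakdown. It supplies nutrients during starvation, and L1 larvae that hatch without food depend on it to survive. The pathway runs in steps: a protein kinase complex starts it, a lipid kinase complex marks the membrane with phosphatidylinositol 3-phosphate (PI3P), ubiquitin-like proteins are attached to the growing membrane, and the closed autophagosome fuses with late endosomes and lysosomes.

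Of the 10 genes, 5 had an NHR-90 peak at a 5′ end (unc-51, epg-8, atg-18, lgg-1 and lgg-2), epg-9 and epg-5 had one inside the gene alone, and bec-1, epg-3 and epg-4 had none in the authors' final list. The final list, called optimal, was cut by the authors at a threshold on reproducibility between replicates and holds 4133 peaks. They are the strongest by signal of 30000 candidates called on the pooled replicates. Of them, 4121 overlapped a candidate in both replicates, so a place in the list does not show that a single peak was equally strong in both. A peak counted as at a 5′ end when its summit, the base of highest signal, was at most 1000 bp before or 200 bp after an annotated transcript 5′ end of the gene. By that rule 14.7% of all protein-coding genes had an optimal peak. With peaks anywhere inside the gene added, 7 of the 10 genes had one, beside 17% of all protein-coding genes, and 2.31% of all had a peak inside the gene alone. Since the list was drawn up with these peaks in view, nothing is read from the difference. The 7 genes had 9 optimal peaks in all, with ranks by signal from 20, at epg-9, to 4133, at epg-5, and a median rank of 1100. Signal is the authors' own value for each peak, on a scale that is not stated, and it is used here to order peaks within a list: it ran from 69.4 to 1699.5 in the optimal list, with a median of 123.6.

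The DNA under 5 of these summits is given: the 3 strongest sites (epg-9, lgg-2 and lgg-1), one of middle rank (atg-18) and the weakest (epg-5). The epg-8 site, which ranks between lgg-1 and atg-18, is not printed. Each stretch is 101 bases of the RefSeq WBcel235 genome (ce11) centred on a summit, read 5′ to 3′. Capitals mark matches to 5 short motifs sought on both strands: GAGAGA, which reads TCTCTC on the other strand, the motif GACGCAG, which reads CTGCGTC there, the E-box CACGTG, the nuclear receptor letters AGGTCA and the GATA-type motif TGATAA. The epg-9 site is at chrIV:2602122-2602222 on the plus strand, the strand of the gene. The epg-5 site is at chrII:6601114-6601214, also on the plus strand, which is the strand of vps-33.2 and opposite to epg-5. The lgg-2 site is at chrIV:10936131-10936231, the lgg-1 site at chrII:6348551-6348651 and the atg-18 site at chrV:8631510-8631610, all on the minus strand, the strand of those genes.
epg-9: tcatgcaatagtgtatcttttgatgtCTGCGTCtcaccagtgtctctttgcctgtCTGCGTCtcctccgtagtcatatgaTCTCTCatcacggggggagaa
epg-5: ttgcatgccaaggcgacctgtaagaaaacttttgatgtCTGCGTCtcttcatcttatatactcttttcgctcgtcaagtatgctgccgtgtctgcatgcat
lgg-2: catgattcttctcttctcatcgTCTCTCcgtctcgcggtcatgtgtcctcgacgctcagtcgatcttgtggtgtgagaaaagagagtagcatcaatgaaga
lgg-1: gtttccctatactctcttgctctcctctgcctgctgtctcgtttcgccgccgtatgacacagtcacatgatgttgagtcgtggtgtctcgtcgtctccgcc
atg-18: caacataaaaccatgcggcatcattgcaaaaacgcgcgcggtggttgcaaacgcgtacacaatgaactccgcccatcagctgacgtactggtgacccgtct
The epg-9 stretch holds GACGCAG at 2 places and GAGAGA at 1, and the epg-5 stretch holds GACGCAG at 1. The lgg-2 stretch holds GAGAGA at 1 place, and in the lgg-1 and atg-18 stretches these letters were not found.

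Autophagy starts with the kinase UNC-51, the worm counterpart of yeast Atg1, and EPG-9, the counterpart of mammalian ATG101, which acts with ATG-13 in the same complex. The epg-9 gene (WBGene00022078, chromosome IV, 2601141 to 2607464, plus strand) held the strongest peak of the 10 genes, from 2602008 to 2602364, with its summit at 2602172. Its signal of 994.9 put it at rank 20 of the optimal list. It was among the strongest in each replicate's own list of candidates, at rank 29 with a signal of 487.9 in replicate 1 and at rank 14 with 509.3 in replicate 2. The summits of the replicates were 4 bp apart. Over the 4121 optimal peaks that overlapped a candidate in both replicates, the median distance between replicate summits was 20 bp, and 31% had summits at most 10 bp apart. Signals of replicate lists are on each list's own scale, whose highest value was 891.0 in replicate 1 and 811.7 in replicate 2.

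The epg-9 peak was in intron 2 of the longest transcript, which has 6 exons. That intron runs from 2601390 to 2603213 and is 1824 bp long, and the summit was 783 bp after the exon before it and 1042 bp before the exon after it. The gene has 3 annotated transcripts with 3 different 5′ ends, and the summit was 1031 bp downstream of the first, 1072 bp upstream of the second and 2686 bp upstream of the third. It fell just short of the window of 1000 bp at the second 5′ end, which is why the peak counts as inside the gene. No other annotated gene overlapped the peak, and the nearest other gene body, Y69A2AR.47, was 4243 bp from the summit. Windows of genes for piRNAs, a class of small RNAs, were not considered. Of the optimal peaks, 362 had a summit in an intron and outside the 5′ window of every other kind of gene. The epg-9 peak was the 2nd strongest of these, and the strongest of the 273 on autosomes. Its closest neighbours in rank were peaks at ranks 18, 21 and 22 on chromosome X, outside the 5′ window of every gene, and a peak at rank 19 in the windows of sls-2.2, a gene for the spliced leader SL2, and of C17C3.22 and C17C3.23.

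A further optimal peak, at rank 1021 with a signal of 199.6, lay outside the window, 1293 bp upstream of the first epg-9 5′ end, at 2599648 to 2600047. It was in no gene's 5′ window, and its matches ranked 828 in replicate 1 and 1369 in replicate 2. The other pooled candidates in the epg-9 windows and gene were far weaker, with signals from 18.5 to 35.9, below the 69.4 at which the optimal list ends. The map of peaks along the genes shows this contrast: 1 tall peak in the intron, 1 lower optimal peak upstream and a row of weak candidates over the rest of epg-9.

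**Figure D1:**
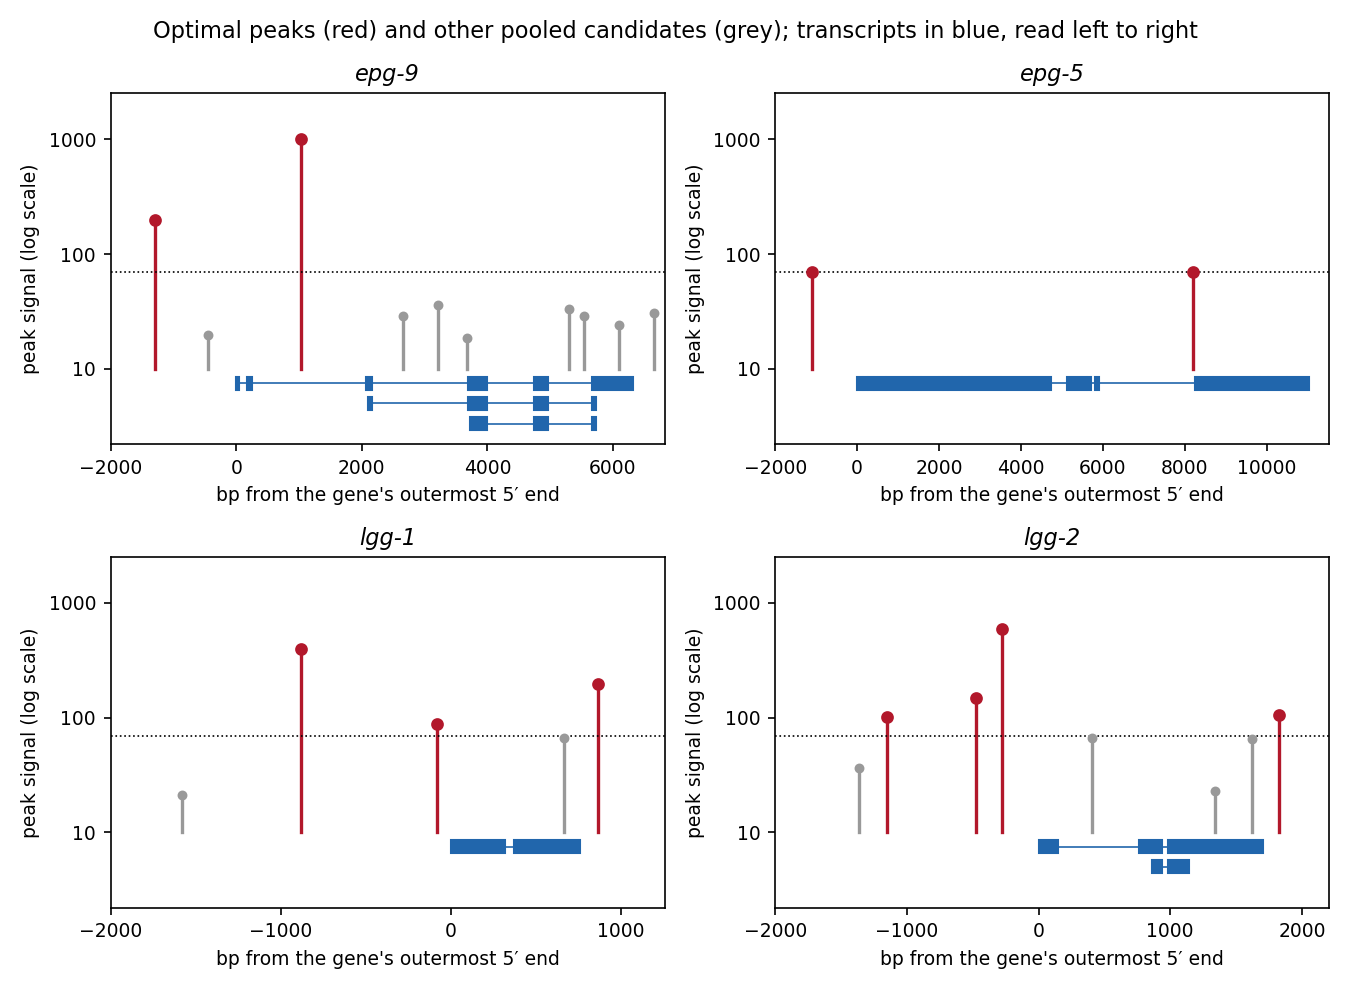
NHR-90 peaks along epg-9, epg-5, lgg-1 and lgg-2: the horizontal axis is the distance in bp from the gene's outermost 5′ end with transcription to the right, and the vertical axis is the authors' signal in the pooled list on a log scale. Red stems are optimal peaks, grey stems other pooled candidates, boxes exons, and the dotted line the lowest optimal signal, 69.4; peaks beyond the 5′ window and the gene are drawn too. The intron peak of epg-9 reached 994.9, while the epg-5 peak lay on the dotted line.

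The unc-51 gene (WBGene00006786, chromosome V, 19995986 to 20004485, minus strand) had a weak optimal peak at 20004530 to 20004929, 245 bp upstream of its single annotated 5′ end. Its signal was 78.5, rank 3551 of 4133. It ranked 3970 in replicate 1 (signal 37.3) and 3740 in replicate 2 (39.4), with summits 23 bp apart, so the replicates placed it similarly. A still weaker optimal peak (rank 3795, signal 74.2) lay 1417 bp upstream, beyond the window. The gene of their partner ATG-13, atg-13, had a pooled candidate in its window at rank 11960 with a signal of 29.7, well outside the optimal list.

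The lipid kinase complex that makes PI3P is represented by BEC-1, the worm Beclin 1, and EPG-8, the counterpart of mammalian ATG14, which directs the complex to autophagy. The epg-8 gene (WBGene00013695, chromosome I, 9931870 to 9934290, minus strand) had a peak at 9934434 to 9934631, 247 bp upstream of its nearest 5′ end, with a signal of 257.4 and rank 668. It ranked 598 in replicate 1 (signal 139.5) and 841 in replicate 2 (112.6), and the replicate summits were 6 bp apart. The body of another gene, dsbn-1, came within 100 bp of the summit, but its 5′ window did not include it. Past the 3′ end of epg-8, 4686 bp from its outermost 5′ end, was a weak optimal peak with a signal of 75.1.

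The bec-1 gene (WBGene00000247, chromosome IV, 5661141 to 5664425, minus strand) had no optimal peak. Its best pooled candidate, 259 bp upstream of a 5′ end at 5664484 to 5664883, ranked 6928 with a signal of 44.8 and a −log10 q-value of 1.67. The replicates differed there, with rank 14159 and a signal of 15.4 in replicate 1 (−log10 q-value 0.36) and rank 5715 and a signal of 28.6 in replicate 2 (2.14). The catalytic subunit gene vps-34 had its best candidate in the window at rank 24502, and vps-15, which encodes its regulatory kinase, had no pooled candidate in its window. Of the 4 genes of this complex, epg-8 alone had an optimal peak by the window rule.

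ATG-18 is a PI3P-binding protein of the WIPI family that acts on the growing membrane. The atg-18 gene (WBGene00018294, chromosome V, 8629174 to 8631327, minus strand) had a peak at 8631360 to 8631759, 233 bp upstream of its nearest 5′ end, with a signal of 190.1 and rank 1100. Its ranks were 1028 in replicate 1 (signal 101.5) and 1209 in replicate 2 (90.4), with summits 20 bp apart. The nearest other gene, oac-29, was 251 bp from the summit, and the peak was in no 5′ window but that of atg-18.

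LGG-1 and LGG-2, the worm counterparts of mammalian GABARAP and LC3, are the ubiquitin-like proteins that are coupled to the autophagosome membrane, and LGG-1 fused to GFP is the usual marker of autophagosomes in this animal. Their genes had the strongest peaks at 5′ ends among the 10, and each had 2 optimal summits in the window. Of all protein-coding genes 188, or 0.941%, had 2 or more, while 2927 had at least 1. In lgg-2 (WBGene00002981, chromosome IV, 10934196 to 10935903, minus strand) the stronger peak, 10936000 to 10936319, lay 278 bp upstream with a signal of 587.9 and rank 111. Replicate 1 ranked it 104 (signal 310.1) and replicate 2 122 (269.3), with summits 18 bp apart. The weaker peak, 10936284 to 10936384, lay 478 bp upstream with a signal of 147.7 and rank 1615. It ranked 1363 in replicate 1 (signal 84.3) and 2165 in replicate 2 (60.2). The 2 peaks overlapped, and their summits had the same spacing in the pooled list and in each replicate. They lay 265 and 465 bp upstream in replicate 1, and 283 and 483 bp upstream in replicate 2. Whether they are separate sites was not tested, so lgg-2 may hold 1 site counted as 2 summits. A further optimal peak (rank 2643, signal 101.0), 1154 bp upstream and so beyond the window, was 397 bp from a 5′ end of the neighbouring gene fic-1. The 5′ window of fic-1 included neither of the 2 nearer peaks. Past the 3′ end of lgg-2 were optimal peaks with signals of 105.0 and 82.7, at 1823 and 2617 bp from its outermost 5′ end.

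In lgg-1 (WBGene00002980, chromosome II, 6346960 to 6347719, minus strand) the stronger peak was the more distant one. It spanned 6348454 to 6348750, 882 bp upstream, with a signal of 397.6 and rank 289. Replicate 1 ranked it 303 (signal 202.8) and replicate 2 251 (201.6), with summits 45 bp apart. The weaker peak, 6347599 to 6347998, lay 80 bp upstream with a signal of 87.8 and rank 3108. The replicates differed more at that site: it ranked 1944 in replicate 1 (signal 66.7) and 4261 in replicate 2 (35.8), with summits 96 bp apart. Beyond the 3′ end of lgg-1, 866 bp downstream of its 5′ end, was a further optimal peak with a signal of 197.0, which counts neither as in the window nor as inside the gene.

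EPG-3, EPG-4 and EPG-5 act in steps that yeast lacks. EPG-3 and EPG-4 are membrane proteins of the endoplasmic reticulum, the counterparts of mammalian VMP1 and EI24, and EPG-5 tethers autophagosomes to late endosomes and lysosomes. The epg-5 gene (WBGene00016968, chromosome II, 6598344 to 6609365, minus strand) had the very last peak of the optimal list, rank 4133 with a signal of 69.4, at 6600964 to 6601363. It ranked 5437 in replicate 1 (signal 29.1) and 3546 in replicate 2 (41), although the summits were 5 bp apart. The summit was 8201 bp downstream of the epg-5 5′ end, in an intron from 6601131 to 6603451. The same site was 52 bp upstream of the 5′ end of vps-33.2, a gene on the opposite strand at 6601216 to 6603459 that lies almost wholly over this intron and encodes a relative of the yeast vacuolar protein Vps33. By position the peak was thus at the 5′ end of vps-33.2 as well as inside epg-5, and the data cannot tell to which gene it belongs. A weak optimal peak 1101 bp upstream of epg-5 (rank 4091, signal 70.0) was likewise 71 bp from the 5′ end of F54H5.10.

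Neither epg-3 nor epg-4 had an optimal peak in the window or the gene. For epg-4 (WBGene00018150, chromosome III, 7182167 to 7184054, plus strand) the best pooled candidate lay 93 bp upstream at rank 10749 with a signal of 32.2. Replicate 1 had a candidate there at rank 5075 with a signal of 30.7, and replicate 2 had none in the window or the gene. For epg-3 (WBGene00012559, chromosome III, 12934717 to 12942288, plus strand) the best was an intron candidate at rank 19962 with a signal of 20.8. In its window, replicate 1 had candidates at ranks 19441 and 23450 and replicate 2 had none. An optimal peak 1269 bp upstream of epg-4 (rank 3941, signal 72.1) was 146 bp from the 5′ end of ndab-2. Stronger optimal peaks lay farther from epg-4, with a signal of 378.6 at −2312 bp from its outermost 5′ end and of 108.9 at 2041 bp, past its 3′ end.

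The optimal list stops at a signal of 69.4, and several sites of these genes lay close to that limit. Just inside were unc-51 (78.5) and epg-5 (69.4). Just outside were candidates in the window of the second lgg-2 5′ end (rank 4335, signal 66.5), inside lgg-1 (rank 4400, 65.7) and inside lgg-2 (rank 4456, 65.0). The last 2 lay close to stronger optimal peaks past the 3′ ends. From the outermost 5′ end, the summits were at 666 and 866 bp (signal 197.0) for lgg-1. For lgg-2 they were at 1622 and 1823 bp (105.0). Whether these candidates are separate from those peaks was not tested. The highest −log10 q-value of the pooled list, 3.99, was shared by 4869 candidates and by every optimal peak, so it does not separate these sites. Across replicates without regard to the optimal list, 7 of the 10 genes had a candidate in the 5′ window in both (epg-9, unc-51, bec-1, epg-8, atg-18, lgg-1 and lgg-2), and 33.5% of all protein-coding genes did. For epg-9 those candidates were weak ones, since the strong intron peak is outside the windows.

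**Figure D2:**
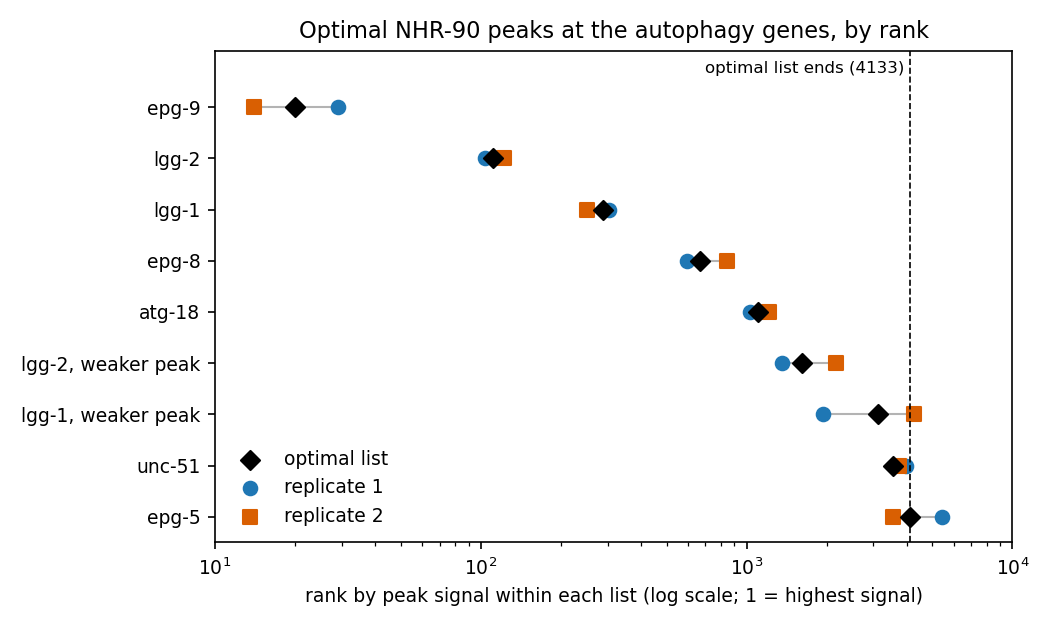
Rank by signal of the 9 optimal peaks at the listed autophagy genes (log scale, 1 is the highest signal): black diamonds give the rank in the optimal list, and blue circles and orange squares the rank of the matched candidate in replicates 1 and 2. The epg-9 peak stood at 20, 29 and 14, and the weaker lgg-1 peak at 3108, 1944 and 4261.

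The order of the genes was nearly the same in both replicates for the strongest peaks. The plot of ranks shows epg-9, lgg-2, lgg-1, epg-8 and atg-18 following one another in that order in the optimal list and in each replicate, with no overlap between neighbours. Below them the order changed: in replicate 1 unc-51 (rank 3970) stood above epg-5 (5437), and in replicate 2 epg-5 (3546) stood above unc-51 (3740) and the weaker lgg-1 peak (4261). With 1 value per replicate, differences between these weak sites cannot be told from the spread between replicates. Of the 9 peaks, 6 were among the 2066 strongest of the 4133 optimal peaks. That cut is at the middle of the list, so 6 of 9 is close to the share of all optimal peaks.

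In 4 of the 5 genes with a 5′ peak, the strongest summit in the window lay between 200 and 300 bp upstream: 233 bp at atg-18, 245 bp at unc-51, 247 bp at epg-8 and 278 bp at lgg-2. The fifth, lgg-1, was at 882 bp. Of the 2927 protein-coding genes with an optimal peak in the window, 525, or 17.9%, had their strongest summit in that interval, and the median of all was 230 bp upstream. Of the 13 other autophagy genes with such a peak 4, or 30.8%, had it there. The interval was chosen after the distances were seen. In all 5 genes the strongest window peak was in no other gene's 5′ window, which held for 1261 of the 2927 genes, or 43.1%.

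**Figure D3:**
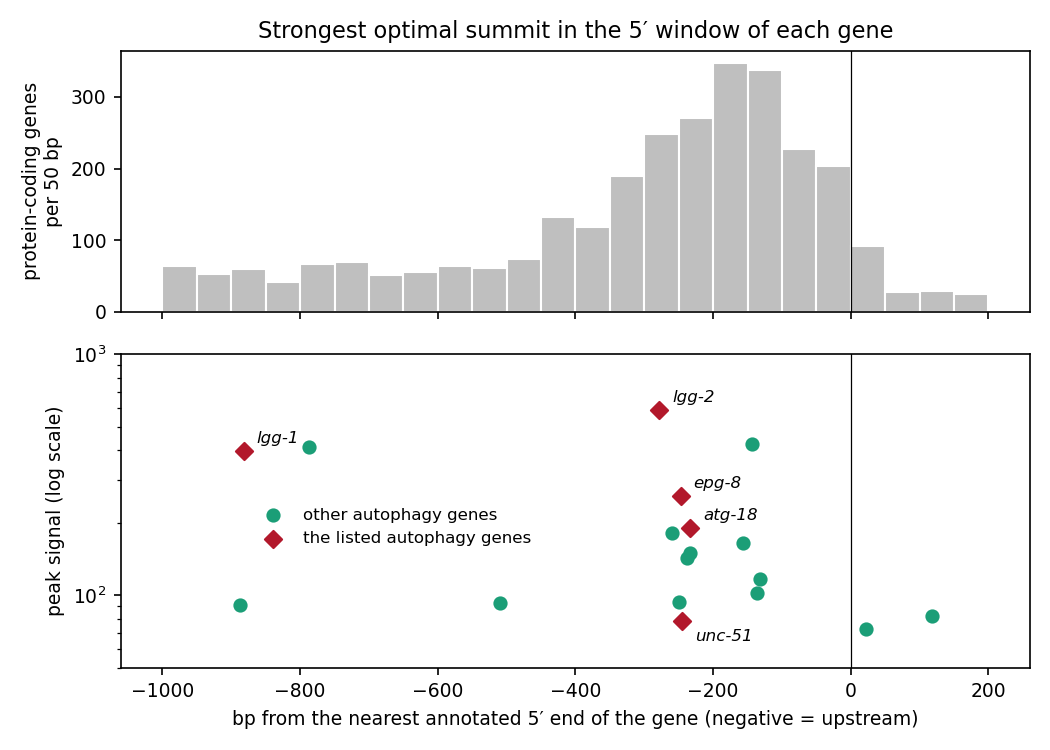
Position of the strongest optimal summit in the 5′ window, in bp from the nearest annotated 5′ end of the gene (negative is upstream). The upper panel counts, per 50 bp, those of the 2927 protein-coding genes with a peak whose summit fell in the range of the bars. The lower panel gives the authors' signal on a log scale for the 5 listed autophagy genes (red diamonds) and 13 other autophagy genes (green circles). Of the red points, 4 lie between 200 and 300 bp upstream.

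The rest of the pathway was examined with 36 further autophagy genes, of which 35 were matched by symbol. An optimal peak in the 5′ window was present at 13 of the 35, or 37.1%, beside 14.7% of all protein-coding genes. The list was written with earlier results of these data known, and no test was made of the difference. By step, the counts were 3 of 3 genes for membrane supply and PI3P effectors, 2 of 9 for conjugation, 1 of 5 for cargo adaptors, 6 of 14 for fusion with lysosomes, 1 of 1 for the transcription factor hlh-30, 0 of 1 for initiation and 0 of 2 for the lipid kinase complex.

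The membrane supply genes all had peaks of middling rank. ATG-9 is the membrane protein that brings lipid to the autophagosome, and its gene had a peak 157 bp upstream with a signal of 164.6 (rank 1351, 1425 in replicate 1 and 1413 in replicate 2). ATG-2 moves lipids between membranes, and atg-2 had a peak 238 bp upstream with a signal of 143.2 (rank 1690), in the window of the noncoding gene M03A8.6 too. EPG-6 is another WIPI-family protein, and its gene had a peak 234 bp upstream with a signal of 149.4 (rank 1584). The atg-2 and epg-6 summits were in introns of those genes, upstream of 5′ ends inside the gene. The atg-2 summit was also closer to a 5′ end of another gene. With atg-18, every gene of this step on either list had an optimal peak in the window of at least 1 of its annotated 5′ ends.

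Of the 9 genes for the machinery that couples LGG-1 and LGG-2 to membranes, 2 had an optimal peak in the window, beside 14.7% of all protein-coding genes. These peaks were at atg-16.1 (136 bp upstream, signal 102.7, rank 2584) and at atg-7, which encodes the activating enzyme (22 bp downstream, signal 72.2, rank 3931). At atg-7 the replicates differed, with rank 2706 in replicate 1 and 8195 in replicate 2. The genes lgg-3, atg-3, atg-4.1, atg-4.2, atg-5, atg-10 and atg-16.2 had no optimal peak in the window, and the closest to the limit was atg-3, at rank 5028 with a signal of 58.4. Among cargo adaptors the peak was at allo-1, which marks paternal mitochondria for removal in the embryo (249 bp upstream, signal 93.5, rank 2890). The p62 homologue sqst-1 had a candidate at rank 5258 with a signal of 56.2.

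The strongest peaks among the other autophagy genes were at fusion genes. At ccz-1, which encodes a subunit of the activator of the small GTPase RAB-7, the peak had a signal of 424.3 (rank 242, 207 in replicate 1 and 303 in replicate 2), 144 bp upstream. At rab-7 itself it had 412.8 (rank 267, 322 in replicate 1 and 210 in replicate 2), 787 bp upstream. Both were shared with neighbours, tag-65 in the first case and W03C9.5 and mex-1 in the second, and the peak at vps-33.1 (signal 117.0, rank 2228) with sdz-1. The rab-7 summit was closer to a 5′ end of another gene than to that of rab-7. The others were at vps-39 (92.7), which encodes a tethering subunit, lmp-1 (91.4), which encodes a lysosomal membrane protein, and cup-5 (82.4), which encodes a lysosomal ion channel. Of the 13 genes, 8, or 61.5%, had a strongest window peak in no other gene's window, beside 1261 of 2927 protein-coding genes, or 43.1%.

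HLH-30, the worm counterpart of mammalian TFEB, is the transcription factor that switches on autophagy and lysosome genes in starvation, and its gene held 6 optimal peaks. Of these, 2 were in 5′ windows, with signals of 182.2 (rank 1175, 260 bp upstream) and 71.0 (rank 4014, 953 bp upstream). The other 4 were outside the windows, with signals from 98.6 to 163.9. All 6 summits were in introns of hlh-30, so the 2 window peaks lay upstream of 5′ ends inside the gene. How many of all protein-coding genes hold as many peaks was not counted. The stronger window peak, which ranked 1678 in replicate 1 and 817 in replicate 2, was also in the window of F35F11.4. The plot of shares by peak rule sets the counts of both lists beside those of all protein-coding genes.

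**Figure D4:**
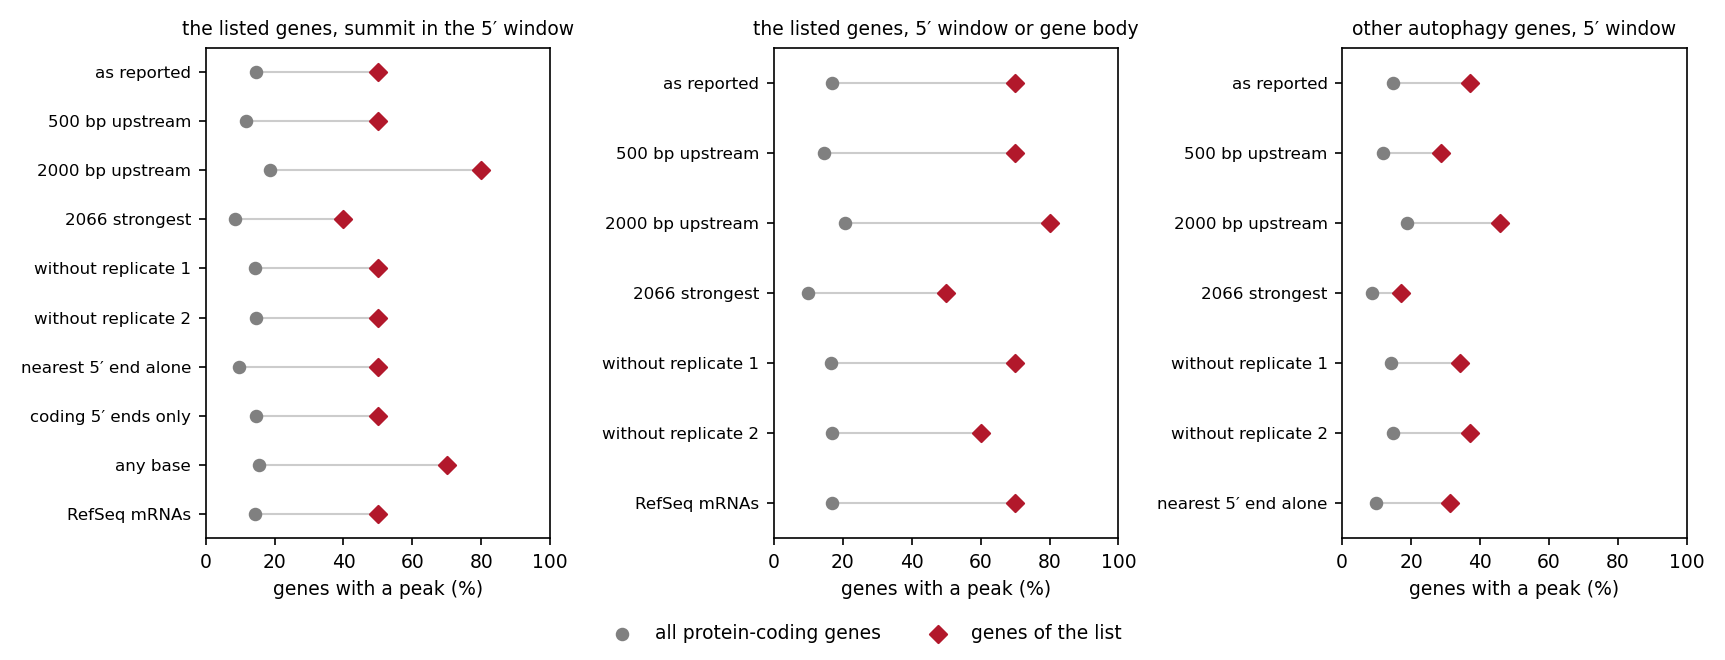
Percent of genes with an optimal peak under each peak rule, for the 10 listed autophagy genes at 5′ ends (left) and at 5′ ends or inside the gene (middle), and for 35 other autophagy genes at 5′ ends (right). Red diamonds are the genes of each list and grey circles all protein-coding genes, and 2066 strongest keeps the optimal peaks of highest signal. In all 3 panels the red diamonds stood to the right of the grey circles under every rule drawn, for genes chosen with these peaks in view.

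The motif matches in the stretches printed above were set against all optimal peaks, since a short motif occurs often by its letters alone. At 4 of the 9 peaks, or 44.4%, at least 1 of the 5 motifs was found within 50 bp of the summit, and so it was at 45.6% of all optimal peaks. GAGAGA was found at 23.2% of optimal peaks, TGATAA at 12.3%, GACGCAG at 9.19%, CACGTG, the E-box to which HLH-30 and its relatives bind, at 8.13%, and AGGTCA, a run that many nuclear receptors recognise, at 4.21%. At the 9 autophagy peaks the letters of the E-box, the nuclear receptor motif and the GATA-type motif were not found in this window. The weaker lgg-1 peak held GAGAGA at 2 places in it. The peaks of unc-51, epg-8 and atg-18, the stronger lgg-1 peak and the weaker lgg-2 peak held no match there. Within 100 bp of the summit, the epg-9 peak held CACGTG at 1 place and the epg-8 peak held TGATAA at 1. In that wider window these motifs were found at 11.3% and 22.7% of optimal peaks. A match is a run of letters and not a binding site.

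Both GACGCAG matches at epg-9 lie in the same run of 12 bases on the printed strand, tgtctgcgtctc, and the epg-5 match lies in it too. That run occurs 720 times in the genome, and 114 of those places, or 15.8%, were in 113 optimal peaks, while optimal peaks cover 1.40% of the genome. GACGCAG alone occurs 8374 times, with 725 places, or 8.66%, in 655 optimal peaks. Of all optimal peaks, 17, or 0.411%, held 2 or more GACGCAG matches within 50 bp of the summit, epg-9 among them. A longer run, cttttgatgtctgcgtctc, 19 bases, was common to the epg-9 and epg-5 stretches and occurred at those 2 places alone in the genome. These runs were picked after the sequences were seen, so their occurrence in these peaks is fixed by the choice.

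Base composition and repeats differed between the peaks as well. At epg-9 48.5% of the 101 bases were G or C and 38.6% were soft-masked, that is, marked as repeat or low-complexity sequence in the reference, beside medians of 44.6% and 17.8% over all optimal peaks. At unc-51 35.6% were G or C and 53.5% were soft-masked. The stronger lgg-1 and lgg-2 peaks and the atg-18 peak had 0% soft-masked, as did 35.7% of all optimal peaks, and the other 4 peaks had from 12.9% to 25.7%. Whether repeats affected how reads were placed at these sites was not tested.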

How the data were processed

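NHR-90-GFP ChIP-seq was analysed from 2 biological replicates of 1 group, as the labels give them. The authors deposited peak lists in the builds ce10 and ce11, and those in ce11, the same genome as WBcel235, were used. Per the file listings deposited with them, candidates were called for each replicate and on pooled reads against a control, and the optimal list was thresholded on the irreproducible discovery rate. Which aligner and peak caller were used is not given in the sources used here. Each peak carries the authors' deposited signal, on a scale that is not stated, and a deposited −log10 q-value. The lists hold no read counts, so depth is unknown.

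Summits were placed with Python 3.11.15 and numpy 2.4.6 against Ensembl release 115, at most 1000 bp before or 200 bp after any transcript 5′ end, or between the first and last base of the gene. One summit may fall in the windows of neighbouring genes, and many annotated worm 5′ ends are sites of trans-splicing. Genes for piRNAs were left out wherever the 5′ windows of other genes or the nearest 5′ end were sought. A replicate's match was the candidate overlapping by 1 bp or more with the nearest summit. The rules were tested on simulated peaks. The 10 genes, the lists and the motifs were chosen with earlier results of these data known, so no test was run: counts stand beside the share of all protein-coding genes. The rule for named genes took the 10 genes, genes sharing their peaks, other autophagy genes with an optimal peak, and genes at the 2 peaks ranked directly above and the 2 directly below the epg-9 peak. Neighbouring genes and other autophagy genes without an optimal peak were named after their values were seen. One symbol of that list, atg-11, was not matched. Alternatives were windows of 500 and 2000 bp upstream, the 2066 strongest optimal peaks, either replicate alone (as many of its strongest candidates as the optimal list has peaks), other rules for 5′ ends and overlap, other motif windows, and, added after seeing the data, RefSeq mRNAs.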

Additional observations from a re-analysis of the deposited data

How the results depend on the processing

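The counts were recomputed under other rules. The 5 of 10 genes with a 5′ peak stayed 5 with 500 bp upstream (11.8% of all protein-coding genes) and with the nearest 5′ end alone (9.69%). They also stayed 5 with coding 5′ ends alone (14.6%) and with RefSeq mRNAs (14.4%), an alternative added after seeing the data. The count became 8 with 2000 bp upstream, where epg-9, epg-4 and epg-5 were added (18.7% of all protein-coding genes). It was 7 when any base of a peak in the window counted (15.6%), and 4 among the 2066 strongest optimal peaks (8.59%). The 7 genes with a peak in the window or the gene became 8 with 2000 bp upstream (20.5% of all protein-coding genes) and 5 among the 2066 strongest (9.90%). Leaving out each replicate in turn gave 5 to 5 genes at 5′ ends, 6 to 7 in the window or the gene (6 without replicate 2, where epg-5 was lost), 12 to 13 of 35 other autophagy genes, and ranks from 14 to 29 for the epg-9 peak. The other autophagy genes numbered 6 of 35 among the 2066 strongest peaks in place of 13 (8.59% of all protein-coding genes). They numbered 10 with 500 bp upstream (11.8%), 16 with 2000 bp upstream (18.7%) and 11 by the nearest 5′ end alone (9.69%). Genes with a candidate in both replicates were 6 when only the stronger candidates of each replicate were kept (24.1% of all protein-coding genes). They were 7 with 500 bp upstream (25.9%) and 9 with 2000 bp upstream (42.8%). The 4 of 9 peaks with a motif became 2 within 25 bp of the summit (27.3% of optimal peaks) and 7 within 100 bp (63% of optimal peaks). No paired analysis was possible because both replicates belong to 1 group. With no read counts, signals carry no counting error, and sites near the lower limit of the optimal list cannot be separated from those just outside it.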
